A study of Mus musculus with 3 samples.

Results

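Foxp3 and the subunits of the IL-2 receptor were examined in H3K36me3 ChIP-seq of mouse Treg cells from the spleen and the large intestine. The members were 4 genes: Foxp3, Il2ra, Il2rb and Il2rg. A peak belonged to a gene when its midpoint lay in the gene body of the GENCODE M21 annotation on mm10. This gave 33 peaks of 120910 in all, and 4 genes of 10037 protein-coding genes with a peak. The genes were chosen by name, with earlier results of these data known.

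Both libraries came from CD3+CD4+Foxp3-YFP+ cells, sorted from adult C57BL/6 mice of genotype Foxp3-YFP at steady state. The Foxp3Cre-YFP allele of these mice makes Cre and the yellow fluorescent protein under control of the Foxp3 locus itself, and no gene was deleted in either group. The cells were a pool from mice of both sexes (7 male, 7 female), and 1 library was made per tissue, so no difference below has a replicate check. A 3rd library, of splenic chromatin without immunoprecipitation, served the authors as control for peak calling and has no values in the table used here. The mark was measured in bulk, so more cells carrying it and more of it per cell cannot be told apart.

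Foxp3 is the transcription factor that defines the Treg lineage. The IL-2 receptor binds the growth and survival cytokine of Treg cells. Its α chain (CD25, Il2ra) raises the affinity for IL-2, and its β chain (CD122, Il2rb) and the common γ chain (CD132, Il2rg) carry the signal through Jak1 and Jak3 to Stat5. Stat5 in turn acts on Foxp3. H3K36me3 is the trimethylation of lysine 36 of histone H3, which Setd2 places behind elongating RNA polymerase II, so it usually lies over the bodies of transcribed genes and not at their starts. The comparison asked whether the mark over these genes differed between Treg cells of both tissues.

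The sequences below show regions of the 4 genes, read from GRCm38.p6, the assembly of mm10, on the strand of each gene. In the first set, capitals mark the coding bases of 1 exon under a peak of each gene. They are the first coding exon of Foxp3 with the start of the next intron (chrX:7586355-7586621), Il2ra exon 2 (chr2:11674235-11674531), Il2rb exon 5 (chr15:78488065-78488290) and Il2rg exon 6 (chrX:101265570-101265786). The flanks are intron.
Foxp3 exon 4: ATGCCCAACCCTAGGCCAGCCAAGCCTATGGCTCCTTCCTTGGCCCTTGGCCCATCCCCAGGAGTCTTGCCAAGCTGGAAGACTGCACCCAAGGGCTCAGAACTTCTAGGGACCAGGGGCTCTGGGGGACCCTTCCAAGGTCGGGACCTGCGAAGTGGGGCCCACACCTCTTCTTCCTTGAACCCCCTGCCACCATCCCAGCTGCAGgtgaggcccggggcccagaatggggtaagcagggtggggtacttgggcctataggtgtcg
Il2ra exon 2: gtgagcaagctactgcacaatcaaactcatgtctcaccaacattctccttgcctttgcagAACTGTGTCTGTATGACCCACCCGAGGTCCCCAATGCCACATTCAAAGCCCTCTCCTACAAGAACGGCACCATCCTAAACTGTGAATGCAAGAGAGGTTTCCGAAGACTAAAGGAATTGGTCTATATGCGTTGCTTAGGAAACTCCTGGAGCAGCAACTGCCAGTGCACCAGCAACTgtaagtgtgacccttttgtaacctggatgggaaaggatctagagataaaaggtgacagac
Il2rb exon 5: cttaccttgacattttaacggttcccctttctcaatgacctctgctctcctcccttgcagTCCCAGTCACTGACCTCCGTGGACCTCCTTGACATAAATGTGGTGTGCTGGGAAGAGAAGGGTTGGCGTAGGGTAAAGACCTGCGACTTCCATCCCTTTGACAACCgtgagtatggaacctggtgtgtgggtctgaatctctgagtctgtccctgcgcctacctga
Il2rg exon 6: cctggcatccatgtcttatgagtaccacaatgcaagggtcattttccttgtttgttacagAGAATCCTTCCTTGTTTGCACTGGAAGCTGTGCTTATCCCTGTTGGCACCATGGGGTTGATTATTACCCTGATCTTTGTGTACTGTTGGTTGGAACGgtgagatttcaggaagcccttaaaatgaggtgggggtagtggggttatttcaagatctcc

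In the next set, capitals mark CpG dinucleotides in intron 1 of Foxp3, Il2ra and Il2rb. Foxp3 peak 4 (chrX:7583894-7584191) had the highest CpG density of the 33 peaks, and Il2rb peak 2 (chr15:78493831-78494103) had one of the largest tissue ratios from few reads. The central bases of Il2ra peak 1 (chr2:11647377-11647676) come from 1 of the 12 peaks of that gene, of 19, with less signal in the large intestine.
Foxp3 peak 4: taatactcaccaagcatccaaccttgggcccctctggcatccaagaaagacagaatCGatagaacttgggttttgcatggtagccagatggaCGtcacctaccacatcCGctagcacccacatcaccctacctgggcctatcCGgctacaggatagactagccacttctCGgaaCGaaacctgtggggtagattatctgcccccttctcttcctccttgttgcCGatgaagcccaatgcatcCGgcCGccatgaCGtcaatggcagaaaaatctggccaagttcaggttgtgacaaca
Il2rb peak 2: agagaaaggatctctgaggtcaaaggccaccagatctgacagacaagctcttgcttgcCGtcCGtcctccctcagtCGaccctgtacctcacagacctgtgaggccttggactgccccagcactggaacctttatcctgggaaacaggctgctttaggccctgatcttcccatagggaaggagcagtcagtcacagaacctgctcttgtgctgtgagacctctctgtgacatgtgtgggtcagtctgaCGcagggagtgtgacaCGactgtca
Il2ra peak 1, central bases: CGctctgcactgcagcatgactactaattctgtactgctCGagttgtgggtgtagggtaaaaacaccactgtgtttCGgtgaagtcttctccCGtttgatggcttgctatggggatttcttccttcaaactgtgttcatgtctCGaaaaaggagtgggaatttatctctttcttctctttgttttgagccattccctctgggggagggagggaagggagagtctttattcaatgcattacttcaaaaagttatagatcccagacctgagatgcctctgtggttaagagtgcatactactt

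Values are the mean read coverage over a peak, in RPKM (coverage per kilobase scaled to sequencing depth). The values imply a depth of 29600000 aligned reads for spleen and 38100000 for the large intestine. Summed over all peaks, the large intestine had 1.03 times the signal of spleen, and every log2 ratio below is large intestine over spleen after this total was scaled out, with a pseudocount of 0.5 RPKM. The approximate 95% counting interval takes a read as covering 200 bp and covers counting error only. Over the 9456 protein-coding genes with at least 20 RPKM in both libraries together, the median log2 ratio was 0.0045 and the middle 50% of genes lay between -0.20 and 0.23. All 6 genes of the Treg list (Foxp3, Il2ra, Ctla4, Ikzf2, Ikzf4, Tnfrsf18) and all 6 of the T cell list carried peaks. The T cell list summed to 561 RPKM in spleen and 504 in the large intestine. Its log2 ratios were negative for 5 genes and positive for Cd4 (0.13). Those of Cd3e (-0.41, -0.80 to -0.03) and Cd2 (-0.47, -0.66 to -0.29) were clear of 0. The Treg list summed to 1807 RPKM in spleen and 1520 in the large intestine, and without Ikzf2 the other 5 summed to 602 and 669, so the direction of the sum rests on that gene. The 4 B cell genes summed to 63.6 and 39.97 RPKM with Ms4a1 in no peak. The 5 myeloid genes summed to 14.7 and 16.3 RPKM, all of it in Csf1r. The 7 epithelial genes summed to 29.9 and 59.8 RPKM with 5 of them in no peak, and the 2 CD8 T cell genes to 21.1 and 9.46 RPKM with Cd8a in no peak. The part of such cells in the ratios below was not tested.

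None of the 4 genes differed by more than 2-fold between the tissues, and with reads taken as covering 200 bp none had a counting interval clear of 0. With 75 bp, the length sequenced, the intervals of Foxp3 (0.07 to 0.31), Il2rb (0.06 to 0.34) and Il2rg (-0.38 to -0.00016) were clear of 0, as were 28.7% of all tested genes above 0 and 26.9% below. Foxp3 and Il2rb had slightly more summed signal in the large intestine, and Il2ra and Il2rg slightly less. Apart from Foxp3 against Il2ra, the level of the mark differed far more between the genes than between the tissues. Of all tested genes, 3.21% were over 2-fold higher in the large intestine and 1.81% in spleen, while 18.5% had the counting interval above 0 and 15.9% below 0.

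To compare levels between genes, the signal was averaged over the length of the gene body, with bases outside peaks set at 0. Il2rb had the highest level, 45.3 RPKM in spleen (95% counting interval 43.4 to 47.2) and 46.7 in the large intestine (45.0 to 48.4). It ranked 6th in spleen and 8th in the large intestine of 10242 protein-coding genes with signal. Foxp3 had 12.7 RPKM (11.8 to 13.5) in spleen and 15.2 (14.3 to 16.0) in the large intestine. Il2ra had 13.3 RPKM (12.7 to 13.9) and 12.7 (12.2 to 13.2). Il2rg had the lowest level, 6.96 RPKM (5.43 to 8.49) and 6.26 (4.99 to 7.54). The medians of the 10242 genes were 4.52 and 4.79 RPKM.

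The Il2rb level was thus 3.58-fold that of Foxp3 in spleen and 3.08-fold in the large intestine. Foxp3 and Il2ra did not differ in spleen beyond counting error (log2 ratio -0.07, interval -0.19 to 0.05), whereas in the large intestine Foxp3 stood above Il2ra (0.26, 0.16 to 0.35). This order depends on where Foxp3 begins. The annotated gene body of 21602 bp starts well upstream of the reference transcript of 15570 bp, the longest principal one, and over that transcript Foxp3 had 17.5 RPKM in spleen and 21.1 in the large intestine, above Il2ra in both tissues (0.40 and 0.73).

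**Figure D1:**
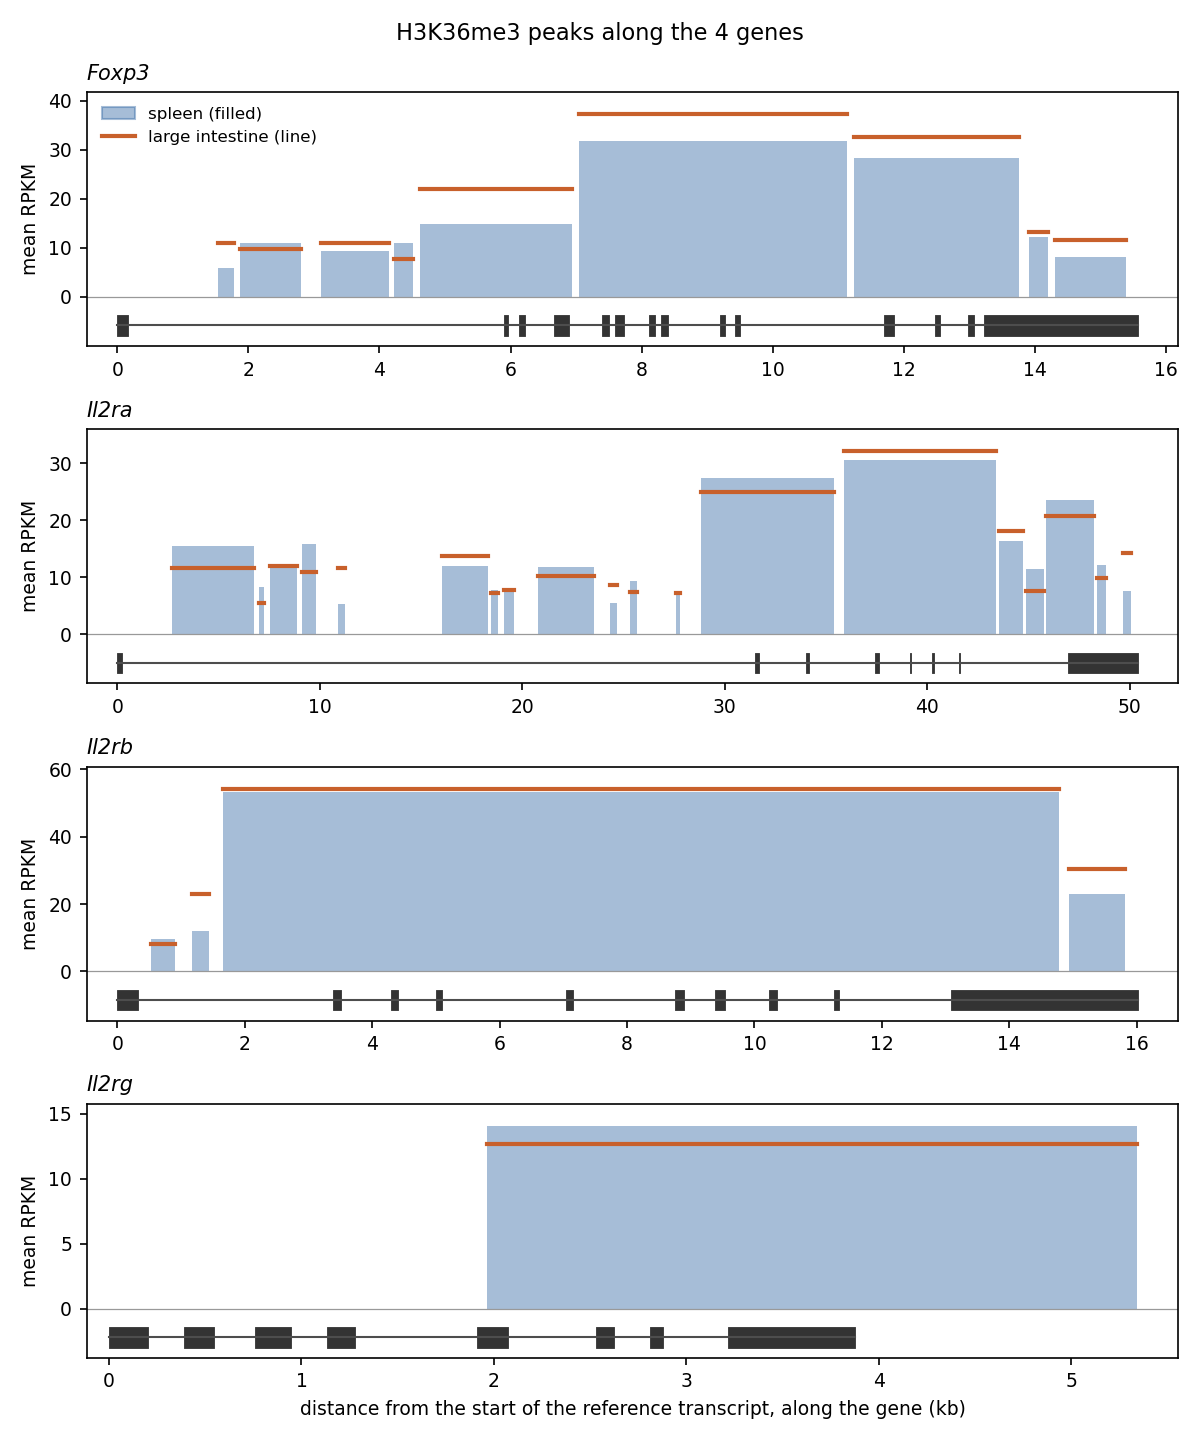
Mean H3K36me3 signal (RPKM, linear axis) of each peak against the distance from the start of the reference transcript in kb, with spleen as filled blocks and the large intestine as lines; the model under each panel shows exons as boxes. Signal sits over the later part of Foxp3 and Il2ra, over nearly all of Il2rb, and over the end of Il2rg, while no peak covers the start of any of the 4 reference transcripts.

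Foxp3 lies on the X chromosome (chrX:7573644-7595245, plus strand, ENSMUSG00000039521.13), and its reference transcript has 14 exons. It held 9 peaks that covered 59.4% of the gene body. No peak covered the reference start, and the nearest began 1531 bp downstream of it. The first 4 peaks lay wholly in intron 1, the intron that holds the conserved enhancers CNS1 and CNS2 of the gene. Their positions were in no file used here, so peaks were not matched to them.

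Signal was lower in these 4 peaks than in peaks 6 and 7, over exons 5 to 14, which were the highest of the gene in both tissues. Peak 1 (253 bp) had 5.78 RPKM in spleen and 11.1 in the large intestine. Peak 2 (919 bp) had 10.98 and 9.83 RPKM, and peak 3 (1034 bp) had 9.29 and 10.9. Peak 4 (298 bp), the CpG-rich one printed above, had 11.03 and 7.70 RPKM. These 4 peaks did not share a direction, and each interval included 0, since peak 1 and peak 4 rested on the equivalent of 4.34 and 9.74 reads in spleen.

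Peak 5 (chrX:7584299-7586614) spanned exons 2 to 4 with the start codon, and 1272 of its 2316 bp (54.9%) lay in intron 1 before exon 2. It had 14.9 RPKM in spleen and 21.9 in the large intestine, a log2 ratio of 0.49 (0.16 to 0.83), and was the only 1 of the 33 peaks with an interval above 0. It kept that call in 7 of 7 alternatives, but most of these only rescaled the libraries, which moved every ratio by the same amount. The ratio was 0.42 (0.09 to 0.76) after correction for GC content and 0.39 (0.05 to 0.72) with a pseudocount of 5 RPKM. Over all peaks, 7.11% had an interval above 0 and 7% below 0. Peak 6, over exons 5 to 10, held the highest signal of the gene, with 31.8 RPKM in spleen and 37.3 in the large intestine (0.18, -0.00094 to 0.36). It carried 47.7% of the length-weighted signal of Foxp3 in spleen and 46.6% in the large intestine. Peak 7, over exons 11 to 14, had 28.4 and 32.7 RPKM (0.16, -0.09 to 0.40).

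The 3′ UTR in exon 14 held peak 8 (294 bp, 12.2 and 13.2 RPKM) and peak 9 (1076 bp, 8.17 and 11.6 RPKM). All 5 peaks of 1 kb or more, which hold most of the reads, had more signal in the large intestine, against 51.1% of all peaks of that length and 48.9% of all peaks. Of the 4 shorter ones, 2 did. Summed over its 9 peaks, Foxp3 had 133 RPKM in spleen and 156 in the large intestine, a log2 ratio of 0.19 (-0.0054 to 0.39) or 1.14-fold. That put it at percentile 71.8 of the 9456 genes.

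The summed interval of Foxp3 just included 0, and this depended on the processing. It lay above 0 in 6 of 15 alternatives, among them weighting by peak length (0.22, 0.09 to 0.34), only peaks of 1 kb or more (0.26, 0.11 to 0.41) and the deposited scaling (0.24, 0.04 to 0.43). After correction for GC content the ratio was 0.09 (-0.11 to 0.29). The ratio stayed positive in all 15.

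As an X-linked gene, Foxp3 was also set against its chromosome. The 212 tested genes of the X chromosome had a median log2 ratio of -0.16, compared with 0.0075 on the autosomes. Foxp3 stood at percentile 79.7 of them, and scaling to the peaks of the X chromosome raised its ratio to 0.34 (0.15 to 0.54). Xist, the RNA of the inactive X chromosome, had 34.9 RPKM in spleen and 47.5 in the large intestine (0.39, -0.16 to 0.95), and 0 of 4 Y-linked genes carried a peak. The share of female cells in each library is not given, and its part in these values was not tested.

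The coding genes that overlap Foxp3 also had ratios above 0. All 9 Foxp3 peaks also lay in Gm36995, a processed transcript on the opposite strand, and peak 9 lay in Ccdc22, a gene that overlaps the Foxp3 end. ChIP-seq carries no strand, so the signal of overlapping genes cannot be told apart. Ccdc22, an endosomal sorting factor, had 50.1 RPKM in spleen and 69.9 in the large intestine (0.43, 0.03 to 0.83). Ppp1r3f, which overlaps the upstream end, had 48.0 and 58.8 RPKM (0.24, -0.24 to 0.72). Without the peak shared with Ccdc22 the Foxp3 ratio was 0.17 (-0.03 to 0.38). Usp27x and Cacna1f, the nearest coding genes beyond these, carried no peak. The peak at the outermost annotated start of Foxp3, whose midpoint lay outside Foxp3 and in Ppp1r3f, had 9.58 and 11.4 RPKM.

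Il2ra (chr2:11642807-11693193, plus strand, ENSMUSG00000026770.5) has 8 exons over 50387 bp. It held 19 peaks that covered 65.1% of the body. Its start was not covered, and the first peak began 2696 bp downstream. Intron 1 held 12 peaks, and the main signal began shortly before exon 2.

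Within Il2ra, signal in the first peak of intron 1 was higher in spleen, and the ratio was close to 0 over exons 4 to 7. Peak 1 (chr2:11645503-11649550) in intron 1 had 15.6 RPKM in spleen and 11.7 in the large intestine, a log2 ratio of -0.44 (-0.73 to -0.16). Peak 13 (chr2:11671620-11678178), over exons 2 and 3, had 27.5 and 25.02 RPKM (-0.18, -0.34 to -0.02). These were the 2 of 33 peaks with an interval below 0, compared with 7% of all peaks. Peak 14 (chr2:11678707-11686182), over exons 4 to 7, was the strongest of the gene with 30.6 RPKM in spleen and 32.2 in the large intestine (0.03, -0.12 to 0.17). Peaks 13 and 14 held 26.9% and 34.2% of the length-weighted signal of the gene in spleen, and 25.6% and 37.5% in the large intestine.

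The call on peak 1 held under each of 6 alternatives, but most of these only rescaled the libraries, which moved every ratio by the same amount. Its ratio was -0.33 (-0.61 to -0.04) after correction for GC content and -0.35 (-0.63 to -0.06) with a pseudocount of 5 RPKM. Peak 13 lost the call in 4 of 6, among them correction for GC content (-0.08, -0.25 to 0.08) and the deposited scaling (-0.13, -0.30 to 0.03). The other 11 intron 1 peaks ranged from -0.60 to 1.03. Peaks 15 and 16 in intron 7 had 0.10 and -0.61, and peak 17, at the start of exon 8, -0.23. The 2 peaks over the 3′ UTR alone had -0.34 and 0.84. The peak at 1.03, peak 5 of the gene (325 bp), had 5.24 RPKM in spleen and 11.6 in the large intestine, the equivalent of 5.05 and 14.4 reads (interval of the ratio -0.32 to 2.39). Peak 19 (403 bp) in the 3′ UTR had 7.49 and 14.2 RPKM (0.84, -0.23 to 1.90). So the widest ratios came from peaks under 1 kb, and their intervals included 0.

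**Figure D2:**
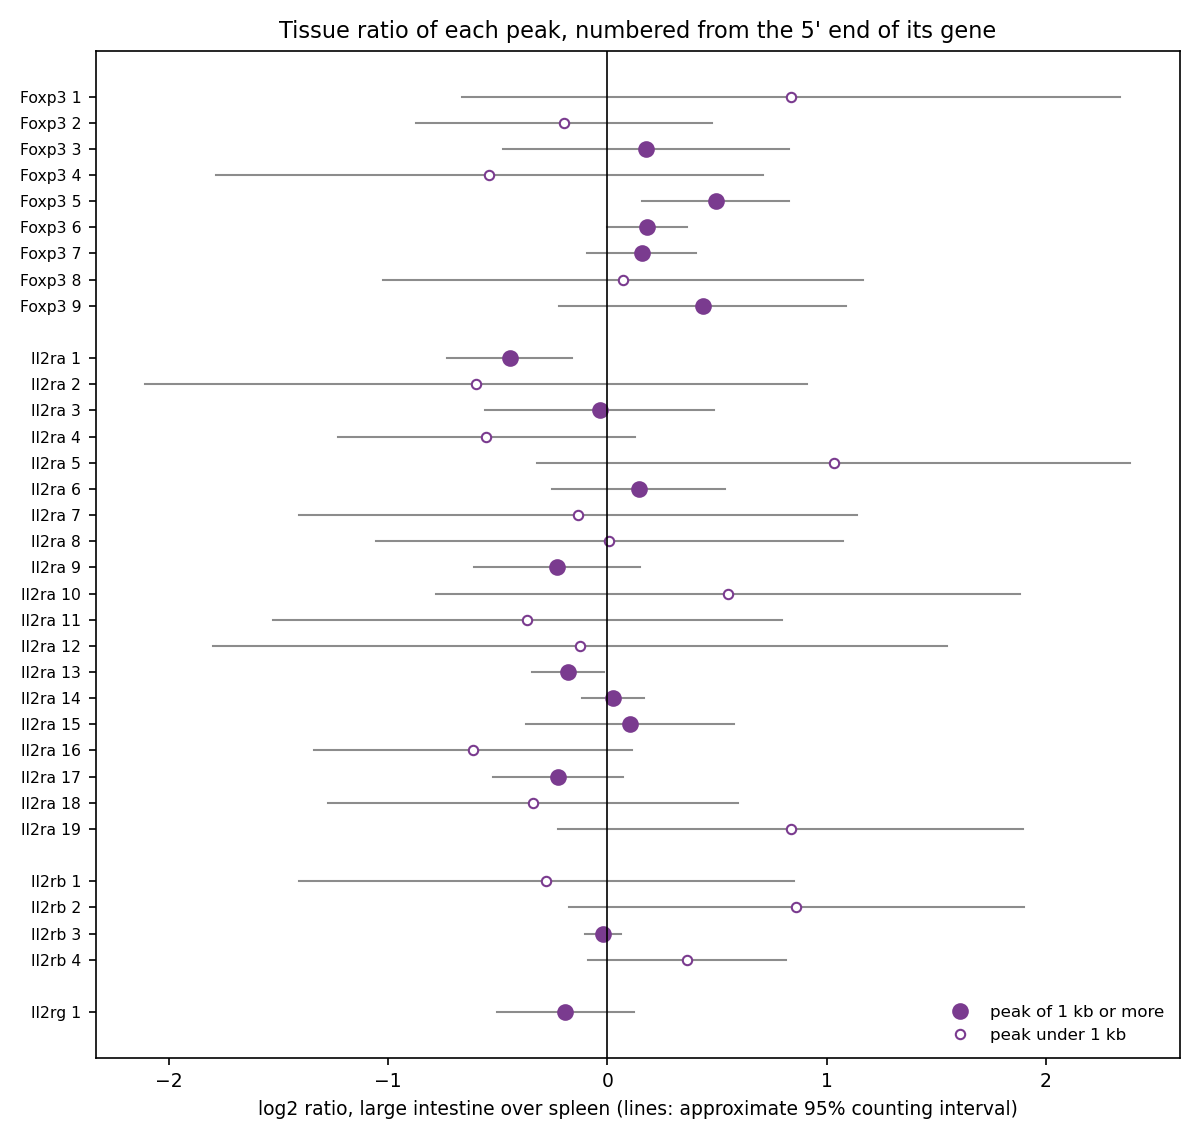
Log2 ratio of large intestine over spleen for each of the 33 peaks, numbered from the 5′ end of its gene, with lines for the approximate 95% counting interval; filled points are peaks of 1 kb or more and open points shorter ones. Foxp3 peak 5 lies to the right of 0, and Il2ra peaks 1 and 13 to the left, while every interval of the shorter peaks includes 0.

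With the gene cut into 3 equal stretches from 5′ to 3′, the log2 ratio of Il2ra was -0.30, -0.14 and -0.04. In spleen these stretches had 6.17, 11.6 and 22.1 RPKM, and in the large intestine 5.19, 10.9 and 22.1. Cut into 10 equal stretches, the ratio showed no steady course. It was 1.10 in the 3rd, which had only 0.34 and 0.75 RPKM, and -0.19 in the last. Summed over its 19 peaks Il2ra had 247 RPKM in spleen and 242 in the large intestine (-0.08, -0.23 to 0.08), a fold of 0.947. It stood at percentile 39.1 of all tested genes. Weighted by peak length the ratio was -0.11 (-0.19 to -0.02), the only 1 of 15 alternatives with the interval clear of 0.

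The neighbour of Il2ra is Il15ra, the related α chain for IL-15. It had 101 RPKM in spleen and 123 in the large intestine over 12 peaks (0.23, -0.12 to 0.59), and its level per length was low, 1.67 and 1.999 RPKM. Gm17490 on the other side carried no peak.

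Il2rb (chr15:78479256-78495271, minus strand, ENSMUSG00000068227.9) has 10 exons. It held 4 peaks that covered 91.5% of the body, compared with a median of 36.3% over the genes with signal. A single peak of 13121 bp (chr15:78480494-78493614) ran from intron 1 into exon 10. It had 53.3 RPKM in spleen and 54.3 in the large intestine, a log2 ratio of -0.02 (-0.10 to 0.06), and held 96.3% of the signal of the gene in spleen and 95.2% in the large intestine. Among all 120910 peaks it ranked 23rd in spleen, 30th in the large intestine and 247th by length.

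The 3 short peaks at its edges varied more. Peak 1 (384 bp) in intron 1 had 9.48 RPKM in spleen and 7.99 in the large intestine. Peak 2 (273 bp), also in intron 1, had 12.0 and 23.0 RPKM (0.86, -0.18 to 1.90), from the equivalent of 9.74 and 24.0 reads. Peak 4 (879 bp) in the 3′ UTR had 22.8 and 30.5 RPKM (0.36, -0.09 to 0.82). The intervals of all 3 included 0.

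Because the sum gives each peak the same weight, these short peaks set the summed ratio of Il2rb, which was 0.20 (-0.02 to 0.42) from 97.6 RPKM in spleen and 116 in the large intestine. Weighted by peak length the ratio was -0.0011 (-0.08 to 0.08), and after correction for GC content the sum gave -0.01 (-0.24 to 0.22). Without the long peak it was 0.42 (-0.03 to 0.87). With the deposited scaling it was 0.25 (0.02 to 0.47), the only 1 of 15 alternatives with the interval clear of 0. The neighbours Tmprss6, with no peak, and C1qtnf6, with 24.1 and 14.9 RPKM in 1 peak (-0.72, -1.54 to 0.10), had little signal.

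Il2rg (chrX:101264378-101268255, minus strand, ENSMUSG00000031304.18) is the smallest of the 4 genes, with 8 exons over 3878 bp. It held 1 peak of 3382 bp (chrX:101262912-101266293), which covered 49.4% of the body. The peak began 1962 bp after the start, ran over exons 5 to 8 and went on past the end of the gene. It had 14.1 RPKM in spleen and 12.7 in the large intestine (-0.19, -0.51 to 0.12), the equivalent of 141 and 163 reads.

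The midpoint of that peak also lay in Gm20489, a coding gene model on the same strand that spans Il2rg, so its signal cannot be given to one of them. Il2rg stood at percentile 46.7 of the 212 tested X genes, and the ratio was -0.04 (-0.35 to 0.27) when scaled to the X chromosome. Med12, a subunit of Mediator and the neighbour beyond its start, had 163 RPKM in spleen and 151 in the large intestine over 13 peaks (-0.16, -0.37 to 0.05). Its level per length, 11.7 and 12.3 RPKM, was above that of Il2rg. Gm614, just past the end of Il2rg, had 15.9 and 14.7 RPKM (-0.15, -1.19 to 0.89).

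**Figure D3:**
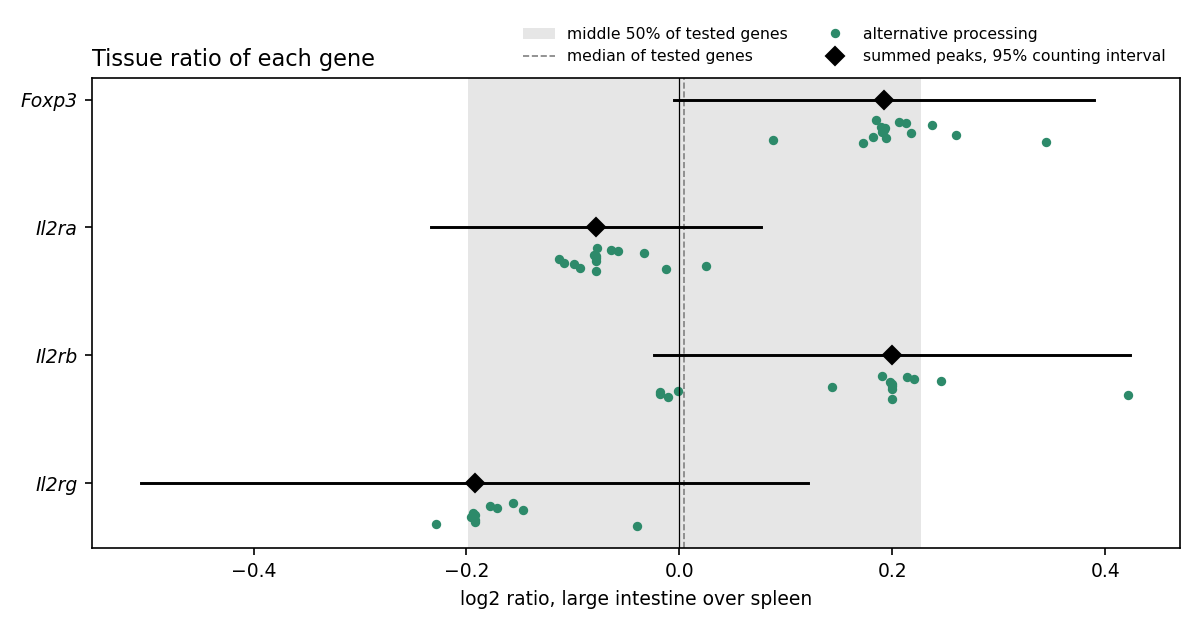
Log2 ratio of large intestine over spleen of each gene from its summed peaks (diamonds, lines for the approximate 95% counting interval) and under each alternative processing (small points, 15 for Foxp3, Il2ra and Il2rb and 11 for Il2rg), over the middle 50% of the 9456 tested genes (grey band) and their median (dashed line). Every point of Foxp3 lies above 0 and every point of Il2rg below, while Il2ra and Il2rb have points on both sides.

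Of the 6 pairs of members, 4 had ratios that differed by more than counting error in the summed signal, and 0 did after correction for GC content. Foxp3 minus Il2ra was 0.27 (0.02 to 0.52) and Foxp3 minus Il2rg 0.38 (0.01 to 0.75), while Il2ra minus Il2rb was -0.28 (-0.55 to -0.0061) and Il2rb minus Il2rg 0.39 (0.0069 to 0.78). In that order, the corrected differences were 0.10 (-0.15 to 0.35), 0.32 (-0.06 to 0.69), -0.0019 (-0.28 to 0.28) and 0.22 (-0.17 to 0.61). The calls held in 9 of 14, 10 of 11, 10 of 15 and 6 of 10 alternatives. Alternatives that only rescaled the libraries, or left the peaks as they were, returned the same difference and could not end a call. For Il2rb minus Il2rg, the only other one that held was the pseudocount of 5 RPKM (0.35, 0.03 to 0.67). The Il2rb differences rest on its short peaks. Foxp3 and Il2rb differed by -0.0080 (-0.31 to 0.29), which became 0.22 (0.07 to 0.37) when weighted by peak length. Il2ra and Il2rg differed by 0.11 (-0.24 to 0.46). These intervals were not adjusted for the number of pairs. The pairs share genes, and no share over pairs of other genes was available to set beside the count.

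GC content moved with the tissue ratio over the whole table. With all peaks put into 10 equal groups by GC content, the median log2 ratio went from -0.41 at 37.5% GC to 0.29 at 56.5%. The peaks of Il2rb had 53.0% GC weighted by length, those of Foxp3 50.2%, those of Il2rg 48.0% and those of Il2ra 45.1%. The corrected sums were -0.01, 0.09, -0.23 and -0.01 in that order.

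CpG density varied widely within Foxp3. Peak 4 held 10 CpG in 298 bp, 3.36 per 100 bp, above 96.6% of all peaks. Peak 8 in the 3′ UTR had 2.38 per 100 bp. Peak 5, with the interval above 0, had 0.820 per 100 bp, and the longest Foxp3 peak 1.10.

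Along the gene body the members did not share a shape. The median tested gene had 8.13% of its signal in spleen in the first of 3 equal stretches of its body and 50.2% in the last. Il2rg had 0% and 67.5%. Foxp3 had 0.0877% and 62.9%, shares that depend on its annotated upstream start. Over the reference transcript they were 12.1% in the first stretch, 48.4% in the middle and 39.6% in the last. Il2ra had 15.5% and 55.4%. Il2rb was flatter, with 28.0% in the first stretch and 32.9% in the last, at percentile 19.4 of the genes for its last stretch. In the large intestine the last stretches held 61.6% (Foxp3), 67.5% (Il2rg), 58.0% (Il2ra) and 33.3% (Il2rb), within 3 percentage points of spleen.

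The genes most like each member in level per length over both libraries were named by distance on the log2 scale, among 10237 genes. Leo1, Timm50 and Rabggta were nearest to Foxp3 (distances 0.01 each). Eif4e2, Smndc1 and Tpm3 were nearest to Il2ra (0.01 to 0.03). Il2rb had more distant neighbours, Cactin (0.04), Sik1 (0.07) and Akna (0.13), and Kdm2a, Fam76b and Lsm14a were nearest to Il2rg (up to 0.02). With 1 value per tissue these are descriptions.

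Genes around the receptor were then read by role, with lists chosen by function. The ratios of many of them moved with GC content. Of the 46 listed genes that passed the filter, 19 had the interval above 0 and 8 below. Over all tested genes, 18.5% were above and 15.9% below. After correction for GC content, 7 of the 19 and 5 of the 8 kept it. Over all genes, 12% were above and 14.6% below after that correction. These shares also stand beside the counts of each list below. In all alternatives run, 6 and 2 kept the call: Il4ra, Il9r, Stat3, Socs2, Runx1 and Nr4a1 above, and Bcl2 and Satb1 below. The cytokines that bind receptors with the common γ chain had few peaks. No peak lay in Il2 itself, nor in Il7, Il9, Il15 and Il21, so 5 of 6 had none. Il4 had 1 peak with 5.51 RPKM in spleen and 15.0 in the large intestine (1.32, 0.01 to 2.63), and after correction for GC content the interval included 0 (-0.25 to 2.42). A gene without a peak may still have signal below the peak threshold.

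The partner receptors all carried the mark. Of 5, 4 were higher in the large intestine, 3 with the interval above 0 and 0 below, and their median was 0.23. Il9r, the IL-9 receptor α chain, had 55.5 RPKM in spleen and 103 in the large intestine (0.84, 0.46 to 1.22). Il4ra, the shared α chain for IL-4 and IL-13, had 99.9 and 145 RPKM (0.49, 0.29 to 0.69), but 0.23 when weighted by peak length. Il21r had 145 and 172 RPKM (0.19, 0.05 to 0.33), and 0.11 (-0.03 to 0.25) after correction for GC content. Il7r, the α chain for IL-7, had 141 and 133 RPKM (-0.13, -0.38 to 0.11), and 0.23 (-0.0074 to 0.46) after that correction.

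Of 15 IL-2 signalling genes 13 passed the filter, with Syk and Gab2 in no peak. Their median was 0.09, with 5 intervals above 0 and 2 below, of which 1 and 2 held after correction for GC content. Jak3, the kinase bound to the γ chain, had 57.9 RPKM in spleen and 79.3 in the large intestine (0.40, 0.16 to 0.64). Jak1, the kinase bound to the β chain, had 282 and 228 RPKM (-0.35, -0.54 to -0.17), which came to -0.14 when weighted by peak length and -0.04 (-0.26 to 0.17) by nearest transcript start. After correction for GC content Jak3 had 0.14 (-0.11 to 0.40) and Jak1 -0.37 (-0.55 to -0.18). Stat5b had 370 and 430 RPKM (0.17, 0.02 to 0.32, and 0.12, -0.03 to 0.28, when corrected) and Stat5a 156 and 182 (0.18, -0.02 to 0.37). Stat3, which IL-6 and IL-21 also engage, had 246 and 389 RPKM (0.62, 0.49 to 0.74).

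Further along the pathway, the kinase Akt1 had 83.9 and 109 RPKM (0.33, 0.22 to 0.43) and the adaptor Grb2 466 and 550 (0.20, 0.05 to 0.34). Neither call held after correction for GC content, with 0.05 (-0.06 to 0.16) for Akt1 and 0.13 (-0.02 to 0.27) for Grb2. Pik3cd, the leukocyte PI3K catalytic subunit, had 355 RPKM in spleen and 271 in the large intestine (-0.43, -0.57 to -0.29). Its level per length, 16.8 and 15.2 RPKM, differed less, and the call was lost with its strongest peak alone.

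All 10 feedback and target genes passed the filter, with a median of 0.03, 3 intervals above 0 and 2 below. Cish and Socs2, inhibitors that Stat5 induces, were higher in the large intestine. Cish had 34.2 and 54.9 RPKM (0.63, 0.41 to 0.85) and Socs2 72.8 and 112 (0.57, 0.20 to 0.94). The strongest Cish peak, with 26.6 and 41.3 RPKM, ran past the gene and also lay in another annotated gene. Without that peak the Cish interval included 0 (-0.0036 to 1.52). The kinase Pim1 had 61.4 and 82.4 RPKM (0.38, 0.20 to 0.56), and 0.05 (-0.13 to 0.24) after correction for GC content. Socs1 (0.20, -0.06 to 0.46) and Socs3 (0.15, -0.05 to 0.35) had intervals that included 0, and that correction put both ratios below 0 (-0.10 and -0.15). The phosphatase Ptpn6 had 120 RPKM in spleen and 92.2 in the large intestine (-0.42, -0.66 to -0.19). Its level per length, 10.5 and 9.30 RPKM, differed less, and the call was lost with its strongest peak alone.

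Bcl2, the survival gene downstream of IL-2 and IL-7, was the only gene of the lists by role that was over 2-fold higher in spleen. It had 406 RPKM in spleen and 137 in the large intestine over 37 peaks (-1.61, -1.89 to -1.33), at percentile 0.31 of all tested genes. Its peaks covered 6.86% of the gene body. The Bcl2 level per length was low, 0.78 RPKM in spleen (percentile 18.9 of genes with signal) and 0.28 in the large intestine. By nearest transcript start the ratio was -0.66 (-0.93 to -0.40), which is under 2-fold. Mcl1, a related survival gene, had 18.9 and 17.4 RPKM (-0.16, -0.36 to 0.03).

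All 17 regulators of Foxp3 transcription and methylation passed the filter, with a median of 0.13, 7 intervals above 0 and 4 below. After correction for GC content, 2 of the 7 (Runx1 and Nr4a1) and 1 of the 4 (Satb1) kept the call. Runx1 had 1279 RPKM in spleen and 1728 in the large intestine (0.39, 0.31 to 0.47), whereas its partner Cbfb had 198 and 151 (-0.44, -0.69 to -0.18). The orphan receptor Nr4a1 had 87.0 and 136 RPKM (0.60, 0.30 to 0.89). The methyltransferase Dnmt1 had 102 and 140 RPKM (0.41, 0.14 to 0.69), and Smad3, the TGF-β effector, 315 and 410 (0.34, 0.14 to 0.53). Foxo3 had 286 and 357 RPKM (0.27, 0.06 to 0.48) and Nfatc2 808 and 969 (0.22, 0.12 to 0.31). The corrected ratios were 0.27 (-0.01 to 0.54) for Dnmt1, 0.15 (-0.05 to 0.35) for Smad3, 0.12 (-0.09 to 0.33) for Foxo3 and 0.06 (-0.04 to 0.15) for Nfatc2.

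The 4 genes with the interval below 0 were Satb1, Rel, Creb1 and Cbfb. Satb1, a chromatin organizer of Treg precursors, had 490 RPKM in spleen and 283 in the large intestine (-0.84, -1.004 to -0.67). The NF-κB subunit Rel had 240 and 199 RPKM (-0.32, -0.50 to -0.13), and Creb1 328 and 284 (-0.26, -0.45 to -0.06). Cbfb is given above. Corrected for GC content, Rel had -0.05 (-0.23 to 0.12), Creb1 -0.06 (-0.25 to 0.13) and Cbfb -0.21 (-0.46 to 0.04). Nfatc1, whose interval lay above 0, had 486 and 549 RPKM (0.13, 0.03 to 0.23), and its ratio fell below 0 after correction for GC content.

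**Figure D4:**
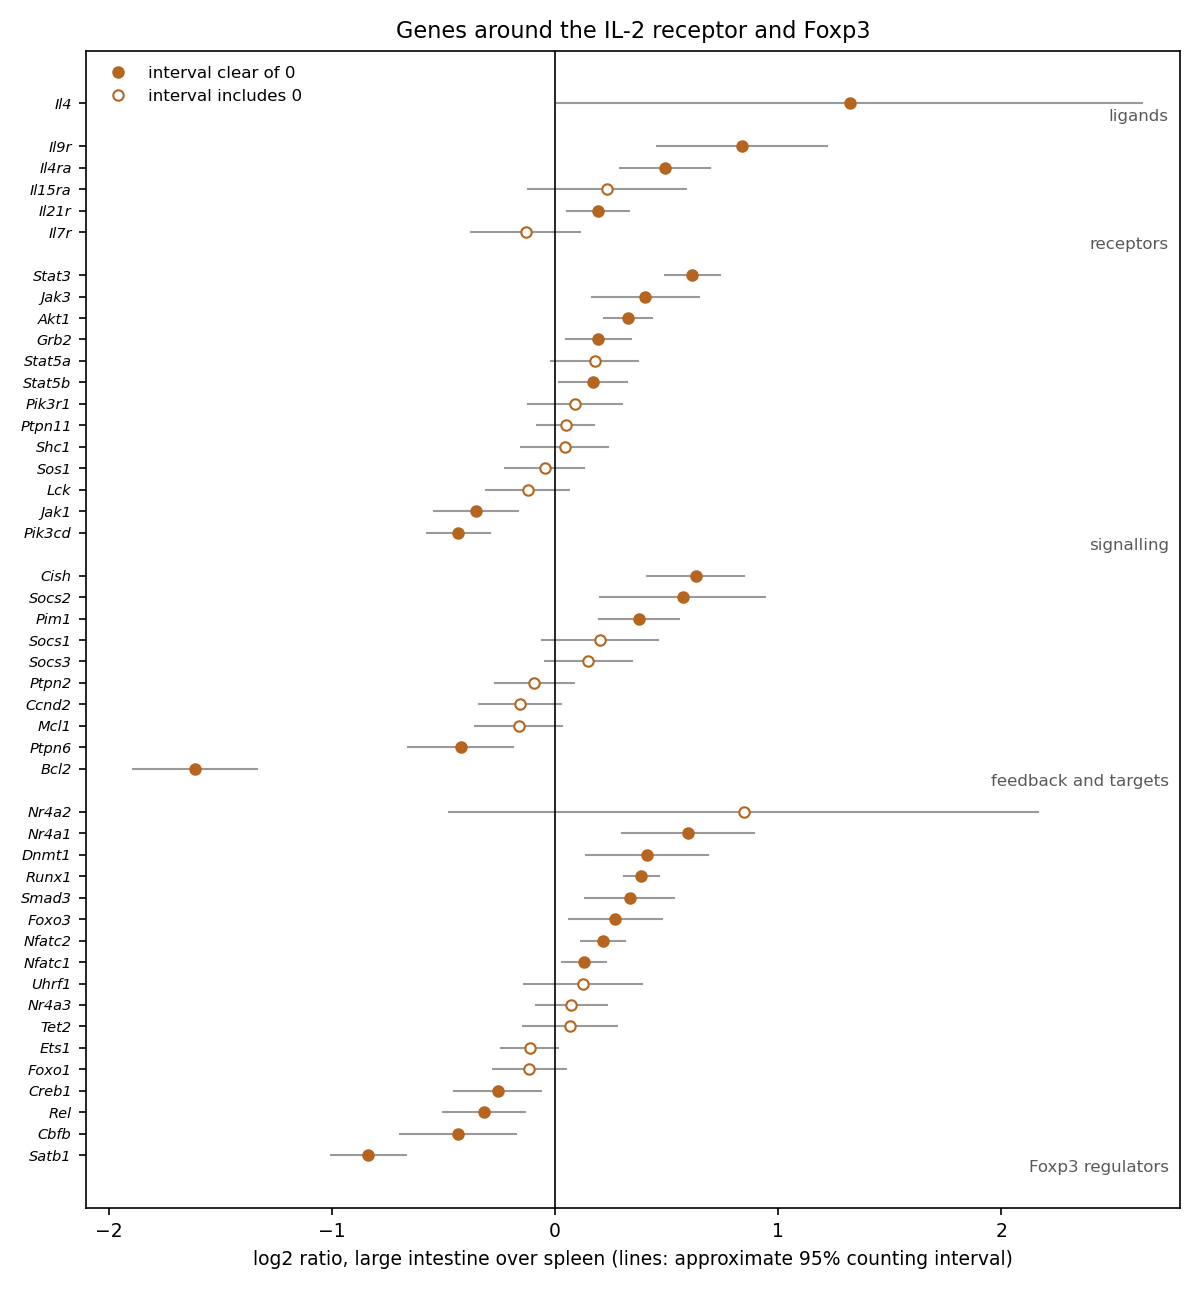
Log2 ratio of large intestine over spleen for the 46 listed genes that passed the filter, grouped by role, with lines for the approximate 95% counting interval and filled points where it is clear of 0. Bcl2 at -1.61 stands apart on the spleen side, and each list with more than 1 gene past the filter has genes on both sides of 0.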

How the data were processed

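H3K36me3 ChIP-seq of Treg cells was read as single-end reads of 75 nt. The submitters' processing notes name FastQC, Bowtie2, MACS2 and bedtools with the mm10 build, with versions not given in the sources used here. The authors called peaks in each tissue against splenic input, merged them, scaled coverage with bamCoverage and deposited the mean RPKM per peak, although the table is named as raw counts. Multiplied by peak length, the values were whole numbers of 1 unit per library (tolerance 0.05) in at least 99.9% of peaks checked, also in bins of 20 bp, which gave the implied depth. A read fills several bins, so reads per peak were not recovered and no count test was run.

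Peaks were assigned by midpoint to GENCODE M21 genes; 0 of 21 chromosomes had a peak past its end in GRCm38.p6. Peak values were summed per gene, as the study does. With 1 library per tissue no test was possible and no p-value was computed. Genes needed 20 RPKM over both libraries. Intervals were checked on simulated reads, where they held the true ratio in 95.0% of 8498 unchanged genes. In genes changed by a known fold they held it in 88.5% to 97.8%. The simulation drew reads at the 200 bp per read that the intervals assume. It could not check that length, or any spread beyond counting error. Calculations used Python 3.11.15, numpy 2.4.6 and pandas 2.3.3. Alternatives covered the pseudocount (5 RPKM), scaling, assignment, filters, weighting by length, peaks of 1 kb or more, the strongest peak and correction by 50 GC bins. The members, their neighbours and the lists were chosen with earlier results of these data known. Named genes were the members, neighbours, the 3 genes most like each, and listed genes over 2-fold apart, with intervals clear of 0 or best known. A pair of listed genes is not reported here and was left out of the list counts.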

Additional observations from a re-analysis of the deposited data

How the results depend on the processing

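With 1 pooled library per tissue, every interval covers counting error only and reads were taken as independent molecules. No paired analysis was possible because each tissue had 1 library. The ratios of the 4 members stayed within their own counting intervals in all 56 alternatives run. Some of these left the peaks of a gene as they were and so could not move its ratio. The highest Il2rb value, 0.4217, lay just inside its upper limit of 0.4236. Foxp3 ranged from 0.09 to 0.34, Il2ra from -0.11 to 0.03, Il2rb from -0.02 to 0.42 and Il2rg from -0.23 to -0.04. Counting only peaks in no other gene left Foxp3 and Il2rg without a peak. The single peak of Il2rg was also lost by requiring it wholly inside the gene, by nearest transcript start, in no other protein-coding gene, and by leaving out the strongest peak. The alternative restricted to peaks in no other protein-coding gene was added after the data were seen, as were those for listed genes, single peaks and differences between members.

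The counts of genes over 2-fold higher in the large intestine (304) and spleen (171) became 468 and 307 with no filter and 68 and 37 among the 4165 genes that reached 200 RPKM. Genes with the interval above 0 (1746) were 1129 after correction for GC content, 841 with at least 200 RPKM and 2711 with reads of 75 bp. Those with the interval below 0 (1504) were 946 and 2540 at 200 RPKM or more and with reads of 75 bp. Of 678 alternatives for listed genes, 630 stayed within the interval, 43 moved out of it and 5 turned the sign of a clear ratio. Those 5 were Grb2 by nearest transcript start (-0.015), Nfatc1 after correction for GC content (-0.0099), Pim1 in no other gene (-0.063) and without its strongest peak (-0.063), and Stat5b by its strongest peak (-0.016). The cause was not tested.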
